A study of Mus musculus with 13 samples.

Results

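Intergenic ESR1 peaks far from any transcription start site (TSS) were examined here. Their summit lay outside every gene body and more than 50 kb from the nearest TSS. The mouse genome mm10 with the GENCODE vM21 basic annotation was used. Of 686823 peaks in 12 ESR1 ChIP-Seq lists, 44667 met this definition and are called far peaks. The 145350 intergenic peaks 3 to 50 kb from a TSS, called near peaks, were the class set beside them. The cells were primary fibroblasts of the lower abdominal muscle (LAM), the hernia-associated fibroblasts or HAFs, from Arom hum mice, and all groups, controls included, therefore carried the human aromatase gene CYP19A1. The study used male mice. After preplating, 1 passage and overnight serum starvation, cells received vehicle, 17β-estradiol (E2), E2 plus fulvestrant, or fulvestrant alone, with 3 libraries each. Fulvestrant at 100 nM or its solvent DMSO was given 3 h before 10 nM E2 or its solvent ethanol, and E2 exposure lasted 1 h. The labels do not say whether the replicates were separate cultures or animals, so p-values measure only the spread between these libraries. A peak list holds no expression, and the fibroblast identity could not be checked against markers.

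ESR1, estrogen receptor-α, is a ligand-activated transcription factor that binds DNA directly at the estrogen response element (ERE), a pair of half-sites facing each other, and indirectly through other factors such as AP-1. Much of its binding in estrogen-responsive cells lies at enhancers, which can act on promoters across long stretches of DNA without genes, called gene deserts. Fulvestrant competes with E2 for the receptor and leads to its degradation.

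Many of the strongest far peaks that recurred across libraries carried EREs. The sequences at the 6 strongest of these are shown because they are the receptor's own site at these places, with that of a seventh region, nearest to Qk, because its rank differed with E2. An ERE was searched for as GGTCA and TGACC 3 bases apart, with at most 1 mismatch in the half-sites, within 100 bp of a summit. The 7 windows below were read from the plus strand of the RefSeq-distributed GRCm38.p6 genome, the same build as mm10, and capitals mark the ERE match. Each is named after the protein-coding gene with the nearest TSS, which is a position and not a measured target. Coordinates of the windows, in the order printed, are chr6:100060037-100060097, chr5:118812987-118813047, chr16:25220722-25220782, chr16:76201022-76201082, chr12:9108952-9109012, chr2:27818904-27818964 and chr17:10001409-10001469.
Rybp: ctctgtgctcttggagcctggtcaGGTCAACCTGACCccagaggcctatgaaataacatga
Med13l: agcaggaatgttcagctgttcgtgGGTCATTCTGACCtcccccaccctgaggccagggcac
Tprg: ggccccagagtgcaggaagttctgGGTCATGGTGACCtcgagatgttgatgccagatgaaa
Nrip1: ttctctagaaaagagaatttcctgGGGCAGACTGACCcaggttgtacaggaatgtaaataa
Ttc32: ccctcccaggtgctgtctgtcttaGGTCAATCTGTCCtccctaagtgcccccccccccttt
Col5a1: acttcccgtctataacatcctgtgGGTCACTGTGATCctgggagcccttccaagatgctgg
Qk: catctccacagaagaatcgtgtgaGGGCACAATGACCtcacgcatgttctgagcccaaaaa

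The Rybp, Med13l and Tprg windows matched with 0 mismatches and the other 4 with 1. The match lay within 44 bp of the summit of the best-ranked peak in each of the 7.

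A second set of sequences marked a different kind of far peak. In E2 replicate 1 and fulvestrant replicate 2, far summits shared 24-base words with each other, and the 4 words below are among the most frequent of them. Capitals mark the whole word.
word 1: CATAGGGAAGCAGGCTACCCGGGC
word 2: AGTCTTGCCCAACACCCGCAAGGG
word 3: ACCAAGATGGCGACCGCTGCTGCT
word 4: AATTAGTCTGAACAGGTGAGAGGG

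The genome holds between 6199 and 7004 copies of each word. Word 1 lay within 100 bp of 630 far summits in E2 replicate 1, of 359 in fulvestrant replicate 2 and of 0 or 1 in each of the other 10 libraries. Words present at 20 or more far summits of a library, simple repeats left out, lay at 64.4% of far summits in E2 replicate 1, and in fulvestrant replicate 2 at 44.5%. No such word existed in any of the other 10 libraries. These 2 libraries are shown apart, and comparisons of treatments are given with and without them.

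The number of far peaks per library was counted first. Vehicle replicates 1, 2 and 3 had 2426, 1413 and 2094 far peaks. The E2 replicates had 13635, 3547 and 4077, and the E2 plus fulvestrant replicates 2038, 2795 and 3684. The fulvestrant replicates had 1962, 4804 and 2192. E2 replicate 1 held far more than any other library and fulvestrant replicate 2 came second. Of the other E2 libraries, replicate 2 lay within the range of E2 plus fulvestrant and replicate 3 above it. Sequencing depth was estimated from each list's lowest background level per base of its narrowest peak. It came to 92.0% to 106% of the median in 10 libraries, 39.1% in E2 replicate 1 and 75.8% in fulvestrant replicate 2.

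**Figure D1:**
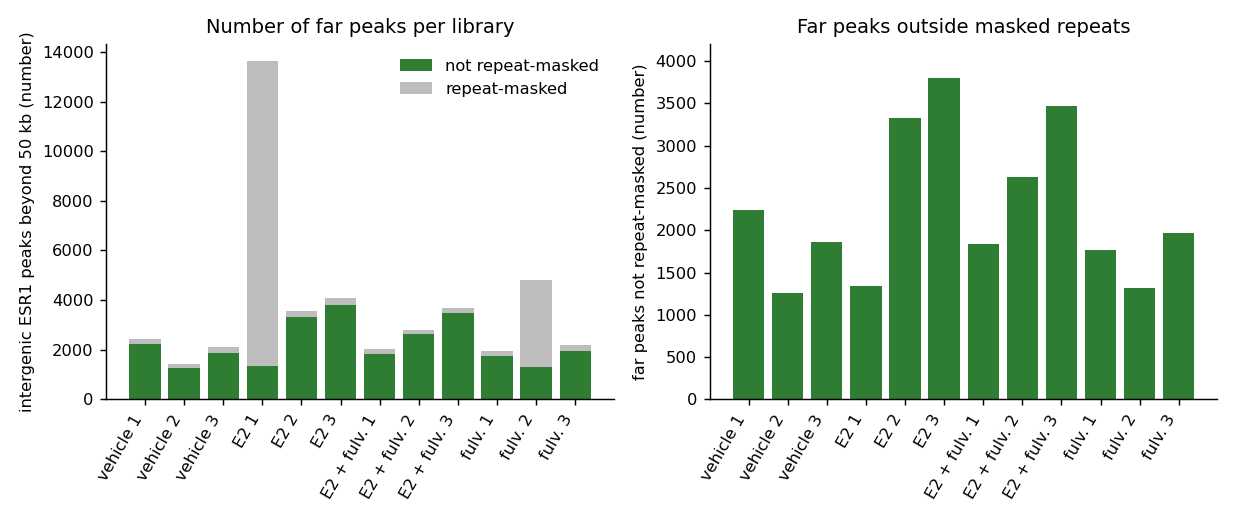
Number of far peaks in each of the 12 libraries (y axes, peaks), with bars on the left split into repeat-masked summits (grey) and others (green), and on the right the others alone. Of the 13635 far peaks in E2 replicate 1, 12289 were repeat-masked, and of the 4804 in fulvestrant replicate 2, 3486 were, against 151 to 284 in each other library.

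With all libraries, E2 gave 7086 ± 5678 far peaks and E2 plus fulvestrant 2839 ± 824 (SD, n = 3 each), a ratio of 2.50. The ratio lay within the spread of the libraries (exact permutation p = 0.2, 0.407 after adjustment over 12 tests, smallest possible p 0.1). Permutation tests were two-sided except where stated. Vehicle gave 1978 ± 516, and the E2 to vehicle ratio of 3.58 had all E2 above all vehicle libraries (exact permutation p = 0.1, 0.3 after adjustment). The E2 plus fulvestrant number was 1.44 times that with vehicle (exact permutation p = 0.3, 0.45 after adjustment) and fulvestrant 1.51 times (exact permutation p = 0.5, 0.545 after adjustment). Without E2 replicate 1 the E2 ratios were 1.34 to E2 plus fulvestrant and 1.93 to vehicle, and without fulvestrant replicate 2 the fulvestrant ratio was 1.05.

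Far peaks were a small share of every list. The share was 4.73%, 4.12% and 5.27% in the vehicle replicates and 13.04%, 5.82% and 5.91% in the E2 replicates. It was 4.98%, 5.49% and 5.56% with E2 plus fulvestrant and 4.61%, 5.95% and 4.79% with fulvestrant alone. All E2 libraries lay above all E2 plus fulvestrant libraries, by 2.91 percentage points on average (exact permutation p = 0.1, 0.3 after adjustment), and above all vehicle libraries, by 3.55 points (exact permutation p = 0.1, 0.3 after adjustment). Without E2 replicate 1 these differences were 0.522 and 1.16 points, and with repeat-masked peaks removed the first was −0.338 points (exact permutation p = 1), or 0.555 points when E2 replicate 1 was left out as well. The territory open to far peaks was 424 Mb, 16.0% of the genome, so far peaks were sparse: 3.33 to 9.62 per Mb in the 10 libraries, 11.3 in fulvestrant replicate 2 and 32.2 in E2 replicate 1. Relative to the whole genome the density was 0.257 to 0.369 in the 10, 0.371 in fulvestrant replicate 2 and 0.814 in E2 replicate 1.

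Chromosomes differed in the same way. Averaged over the 10 libraries, chromosome 13 had the most far peaks per Mb of far territory, 10.98. Chromosome 19 had 2.97, the X chromosome 1.47 and the Y chromosome, the lowest, 0.130. In E2 replicate 1 chromosome 13 had 33.1 per Mb, chromosome 19 had 26.8, X had 34.5 and Y had 19.0. In fulvestrant replicate 2 the densities in that order were 15.8, 7.53, 9.09 and 1.12. The X chromosome was thus well below chromosome 13 in the 10 libraries and about as dense in E2 replicate 1.

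Repeats set the same 2 libraries apart. A far peak was counted as repeat-masked when soft-masking covered over 50% of the window of 100 bp on each side of its summit. The share was 7.54%, 10.7% and 10.9% in the vehicle replicates and 90.1%, 6.12% and 6.97% in the E2 replicates. It was 9.91%, 5.87% and 5.89% with E2 plus fulvestrant and 10.1%, 72.6% and 10.4% with fulvestrant alone. The 95% Wilson interval, which covers counting error only, ran from 89.6% to 90.6% in E2 replicate 1 and from 71.3% to 73.8% in fulvestrant replicate 2. Evenly spaced far positions were masked at 36.0%, so 10 libraries lay below and these 2 above that level. Tandem repeats of 1 to 6 bases covered at least 24 bases at 18.8% of far summits in E2 replicate 1, 9.39% in fulvestrant replicate 2 and 2.33% to 5.45% in the others.

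The masked share of E2 exceeded that of E2 plus fulvestrant by 27.2 points on average (exact permutation p = 0.5, 0.545 after adjustment) and was 0.681 points below it without E2 replicate 1 (exact permutation p = 1). Against near peaks of the same library, far peaks were more often masked in 2 libraries and less often in 10, with a mean difference of 1.05 ± 8.34 points (SD, n = 12; exact sign-flip permutation p = 0.799, 0.799 after adjustment). The 2 were E2 replicate 1, with 79.9% of near peaks masked, and fulvestrant replicate 2, with 47.8%. Leaving both out gave −2.24 points (exact permutation p = 0.00195, the smallest possible for 10 libraries). Evenly spaced positions of the genome were masked at 36.0% in far and 39.9% in near territory. The genome itself thus differed in the same direction, and whether far peaks differed beyond it was not tested. GC content at far summits had a median of 47.3% in E2 replicate 1, 54.2% in fulvestrant replicate 2 and 42.3% to 44.8% in the others.

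Unmasked far peaks alone numbered 2243, 1262 and 1865 in the vehicle replicates and 1346, 3330 and 3793 in the E2 replicates. They numbered 1836, 2631 and 3467 with E2 plus fulvestrant and 1764, 1318 and 1963 with fulvestrant. On this count E2 replicate 1 lay with the vehicle and fulvestrant libraries, E2 replicate 2 lay within the range of E2 plus fulvestrant and E2 replicate 3 above it.

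Strength was compared as rank within a list, since the lists differ in depth. Peaks were ranked by −log10 p and expressed as a percentile, with 0 at the strongest. The median percentile of far peaks was 59.7, 58.9 and 58.4 in the vehicle replicates, 57.3, 50.6 and 53.6 in the E2 replicates, 58.5, 50.7 and 47.0 with E2 plus fulvestrant and 61.9, 61.8 and 58.4 with fulvestrant alone. Far peaks thus sat slightly below the middle of most lists, with E2 plus fulvestrant replicate 3 the 1 exception above it. Against near peaks, their median percentile differed by 0.611 ± 2.62 (SD, n = 12), a difference within the spread (exact sign-flip permutation p = 0.428, 0.545 after adjustment).

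Far peaks in the top 10% of each list were counted next. The share of far peaks that ranked in the top 10% was 4.58%, 4.95% and 4.20% in the vehicle replicates and 3.77%, 0.978% and 4.15% in the fulvestrant replicates. It was 6.20%, 10.2% and 7.11% in the E2 replicates and 6.67%, 10.3% and 12.1% in the E2 plus fulvestrant replicates. All 6 libraries given E2 lay above all 6 not given it, E2 replicate 1 included, and no test was run on this share. In E2 replicate 1, however, 817 of these 846 peaks were repeat-masked. Among unmasked far peaks its share was 2.15%, the lowest of the 12 libraries. On that count the other 5 libraries given E2 had 7.19% to 12.6% and the 6 not given it 2.43% to 4.83%. Near peaks had the same order, with 5.49% to 10.07% in the top 10% in the 6 libraries given E2 and 2.10% to 5.15% in the other 6. Median fold enrichment of far peaks was 2.74 to 3.28 in the 10 libraries, 3.10 in fulvestrant replicate 2 and 4.15 in E2 replicate 1. The fragments behind those medians were 16 to 21 per summit in the 10 libraries, 9 in E2 replicate 1 and 12 in fulvestrant replicate 2.

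EREs, the receptor's own sites, were then counted at far summits. An ERE lay within 100 bp of 2.76%, 3.61% and 2.87% of far summits in the vehicle replicates and 0.873%, 4.14% and 3.73% in the E2 replicates. The share was 4.42%, 4.72% and 3.58% with E2 plus fulvestrant and 3.21%, 0.666% and 2.87% with fulvestrant alone. E2 replicate 1 and fulvestrant replicate 2 were the lowest of all, closest to the 0.465% at evenly spaced far positions of the genome, and the other 10 did not overlap them. In windows 2 kb upstream of the far summits the share was 0.0708% to 0.495% in the 10 libraries, 1.66% in E2 replicate 1 and 0.645% in fulvestrant replicate 2. In E2 replicate 1 the upstream share was therefore the larger.

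**Figure D2:**
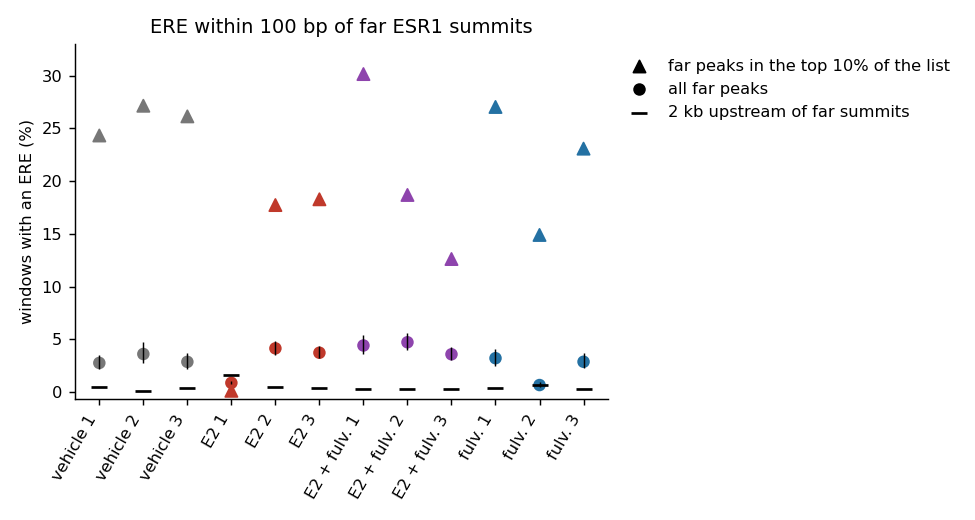
Share of windows with an ERE (y axis, percent) in each library for far peaks in the top 10% of the list (triangles), all far peaks (circles, with 95% Wilson intervals) and windows 2 kb upstream of far summits (dashes). All far peaks sit between 2.76% and 4.72% in 10 libraries and at 0.873% and 0.666% in E2 replicate 1 and fulvestrant replicate 2, and the triangles sit above the circles in each library but E2 replicate 1.

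The 6 libraries given E2 had an ERE at 3.58% ± 1.39 of far summits and the 6 not given it at 2.66% ± 1.03 (SD), a difference of 0.913 points (exact permutation p = 0.247, 0.423 after adjustment). Without E2 replicate 1 and fulvestrant replicate 2 it was 1.05 points (exact permutation p = 0.0159), without E2 replicate 1 alone 1.45 points (exact permutation p = 0.00649), and above a −log10 q of 10 it was −7.32 points (exact permutation p = 0.134). Without those 2 libraries, near summits held an ERE at 3.66% given E2 and at 2.49% not given it. Summits of all peaks held one at 2.74% and 1.79%, so the order by E2 was not particular to far peaks. Within libraries, far summits held EREs more often than near summits in 11 of 12 libraries, by 0.417 ± 0.315 points (SD, n = 12; exact sign-flip permutation p = 0.00244, 0.0293 after adjustment), fulvestrant replicate 2 being the exception. With the limit at 100 kb from a TSS the excess was −0.0617 points (exact permutation p = 0.627).

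The ERE share was also split by distance. Over the 10 libraries, EREs lay at 3.08% ± 0.696 of near summits, 3.85% ± 0.600 of those 50 to 100 kb from a TSS, 2.47% ± 1.07 of those 100 to 200 kb away and 5.50% ± 1.16 of those farther than 200 kb (SD, n = 10). The last class held 1678 peaks and 91 EREs, and the share did not run one way with distance. At the limit itself, the 12 lists held 4848 peaks between 50 and 55 kb and 5227 between 45 and 50 kb. In the 10 libraries, those just beyond the limit had EREs at 3.45% of summits and were masked at 8.76%, and those just short of it had 2.98% and 7.92%.

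EREs were concentrated in the strongest far peaks. Among far peaks ranked in the top 10% of their list, the ERE share was 24.3%, 27.1% and 26.1% in the vehicle replicates and 0.118%, 17.7% and 18.3% in the E2 replicates. It was 30.1%, 18.7% and 12.6% with E2 plus fulvestrant and 27.0%, 14.9% and 23.1% with fulvestrant alone. Strong far peaks of E2 replicate 1 almost all lacked an ERE, whereas those of every other library had one at 12.6% or more. Among far peaks past rank percentile 50 the share was 0.965% to 2.05% in the 10 libraries, 1.18% in E2 replicate 1 and 0.360% in fulvestrant replicate 2.

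AP-1, the dimer of JUN and FOS family factors that often shares enhancers with ESR1, was searched for as TGANTCA on both strands, a looser pattern than its usual TGACTCA and TGAGTCA sites. It lay at 10.1%, 10.3% and 11.4% of far summits in the vehicle replicates and at 1.86%, 14.4% and 14.4% in the E2 replicates. The share was 11.6%, 15.5% and 15.5% with E2 plus fulvestrant and 10.7%, 2.77% and 9.90% with fulvestrant alone. Outside E2 replicate 1, every library given E2 lay above every library not given it, against 6.03% at evenly spaced far positions and 6.13% to 8.21% in the upstream windows of the 10 libraries. Near summits showed this order too, with AP-1 at 10.07% to 13.8% in those 5 libraries given E2, at 2.34% in E2 replicate 1 and at 4.17% to 9.49% in the 6 not given it. GGAATG, the core of TEAD sites, lay at 13.1% to 18.4% of far summits in the 10 libraries (11.1% of far positions), and the CTCF core, CCA and AG and GGC with 2 bases between each, at 0.507% to 1.06% (0.537% of far positions).

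Recurrence was counted after merging the 12 lists into 228284 regions, of which 22350 were far by the summit of their best-ranked peak. A single library accounted for 16357 far regions (73.2%, against 64.2% of all regions). E2 replicate 1 alone accounted for 10966, fulvestrant replicate 2 alone for 1609 and that pair together for 2151, so that 14726 far regions (65.9%) had a peak in none of the other 10 libraries. Leaving out that pair, 7624 far regions had a peak in at least 1 of the 10 libraries, and 4020 of them (52.7%, against 49.9% of all such regions) in 1 of the 10. The pair-only regions had a median GC content of 61.7%, were masked at 93.8% and held 1 ERE.

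Far regions present in at least 6 of 12 libraries are called recurrent. There were 1459, or 6.53% of far regions, while 12.8% of all regions were recurrent. Counted over the 10 libraries alone, 1397 of the 7624 far regions (18.3%) and 22.8% of all regions had a peak in at least 6. All 10 other libraries shared 413 far regions and all 12 shared 85. The vehicle replicates had a peak in 82.2%, 54.4% and 64.3% of the recurrent far regions, the E2 replicates in 15.8%, 97.1% and 98.4%, the E2 plus fulvestrant replicates in 71.4%, 91.0% and 95.6% and the fulvestrant replicates in 73.5%, 30.9% and 73.9%. Seen the other way, 1.70% of the far regions of E2 replicate 1 and 10.1% of those of fulvestrant replicate 2 were recurrent, against 38.3% to 72.7% in the other 10. Each library's own peaks count toward the 6. These shares, and the counts per library within recurrent far regions below, are therefore not independent of the rule.

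**Figure D3:**
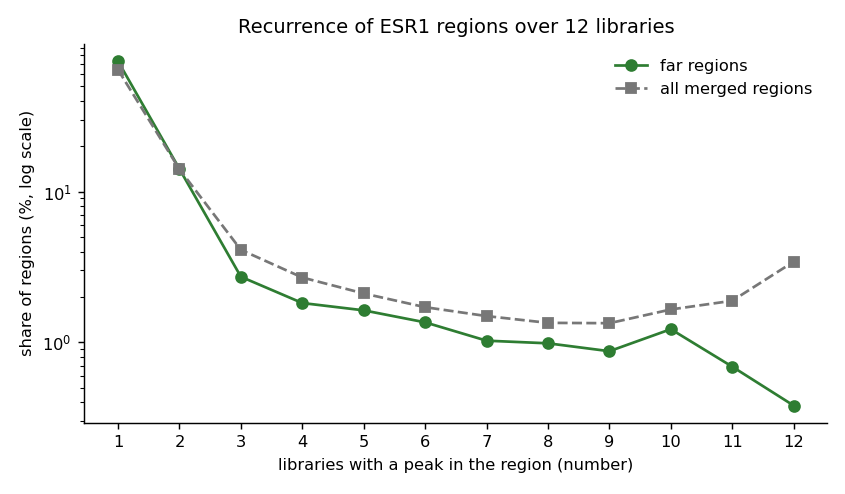
Share of regions (y axis, percent on a log scale) by the number of the 12 libraries with a peak there (x axis), for far regions (green circles) and all merged regions (grey squares). A single library holds 73.2% of far and 64.2% of all regions, and all 12 libraries share 0.380% of far and 3.42% of all regions.

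Recurrent far regions differed in sequence from those of 1 library. They were masked at 5.41%, held an ERE at 5.96% (87 regions, 27 without a mismatch) and AP-1 at 15.7%. The 3782 far regions found in only 1 library, that library being among the 10, were masked at 16.0%. They held an ERE at 0.952% and AP-1 at 9.94%. Far regions of E2 replicate 1 only were masked at 90.7% and held an ERE at 0.976%. Recurrent near regions held an ERE at 4.87% and all recurrent regions at 3.38%. The 413 far regions in all 10 libraries held an ERE at 9.20%.

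Overlap of covered bases, the Jaccard index, gave the same grouping of libraries. The mean index with the 10 libraries was 0.00877 for E2 replicate 1, 0.0581 for fulvestrant replicate 2 and 0.240 to 0.331 for each of the 10, and E2 replicate 1 and fulvestrant replicate 2 had 0.154 with each other. Pairs of one treatment had a mean of 0.226 and pairs of different treatments 0.209, a difference of 0.0166 (one-sided exact permutation p = 0.203, 0.407 after adjustment), or 0.0336 without E2 replicate 1 and fulvestrant replicate 2 (one-sided exact permutation p = 0.0665). Above a −log10 q of 10, pairs of one treatment were ahead by 0.0774 (one-sided exact permutation p = 0.0181).

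The 10 strongest recurrent far regions, by mean rank percentile over the libraries with a peak there, included 7 with an ERE. The first lay 227 kb from Rybp, which encodes a Polycomb group component, at chr6:100058305-100061262. It ranked 1, 2 and 2 in the vehicle replicates, 126, 1 and 1 in the E2 replicates, 1, 1 and 1 with E2 plus fulvestrant and 4, 4 and 4 with fulvestrant alone. It was the strongest or nearly the strongest peak of the genome in 11 libraries, whatever the treatment. Its fold enrichment was 19.96, 18.3 and 18.9 with vehicle, 27.0, 32.2 and 33.2 with E2 plus fulvestrant, 28.0, 31.1 and 27.7 with E2 and 18.9, 22.3 and 16.6 with fulvestrant, so that all 6 libraries given E2 lay above all 6 not given it.

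The second region, at chr5:118811894-118814141, lay 252 kb from Med13l, a subunit of the Mediator kinase module. Its rank was between 7 and 49 in all 12 libraries, and it was the best-ranked recurrent far region in E2 replicate 1 among those named here. The region nearest to Tprg, at chr16:25219855-25222704 and 66.1 kb away, ranked between 1 and 12 in 11 libraries and 8410 in E2 replicate 1. Its fold enrichment reached 50.6 in E2 plus fulvestrant replicate 3, and was 26.4 to 31.3 in the 5 libraries not given E2 other than fulvestrant replicate 2 and 35.7 or more in the 5 given E2 other than E2 replicate 1.

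The region at chr16:76200452-76201729 lay 172 kb from Nrip1, a corepressor that binds ESR1 and other nuclear receptors. It ranked 351, 287 and 73 with vehicle, 109 and 126 in E2 replicates 2 and 3, 214, 132 and 137 with E2 plus fulvestrant, and 500 and 88 in fulvestrant replicates 1 and 3. E2 replicate 1 and fulvestrant replicate 2 had no peak there. The ranks of libraries given E2 fell inside the range of those not given it.

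Of the rest, the regions nearest to St3gal4, a sialyltransferase gene, 71.5 kb away at chr9:35043530-35046982, and to Cyb5b, a cytochrome b5 gene, 56.2 kb away at chr8:107204817-107208149, held no ERE. The St3gal4 region ranked 30 to 120 in the 10 libraries and 17144 in E2 replicate 1. The region nearest to 1700129C05Rik, 344 kb away at chr14:58798495-58799845, held an ERE and ranked 216 to 1195 in the 10 libraries.

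**Figure D4:**
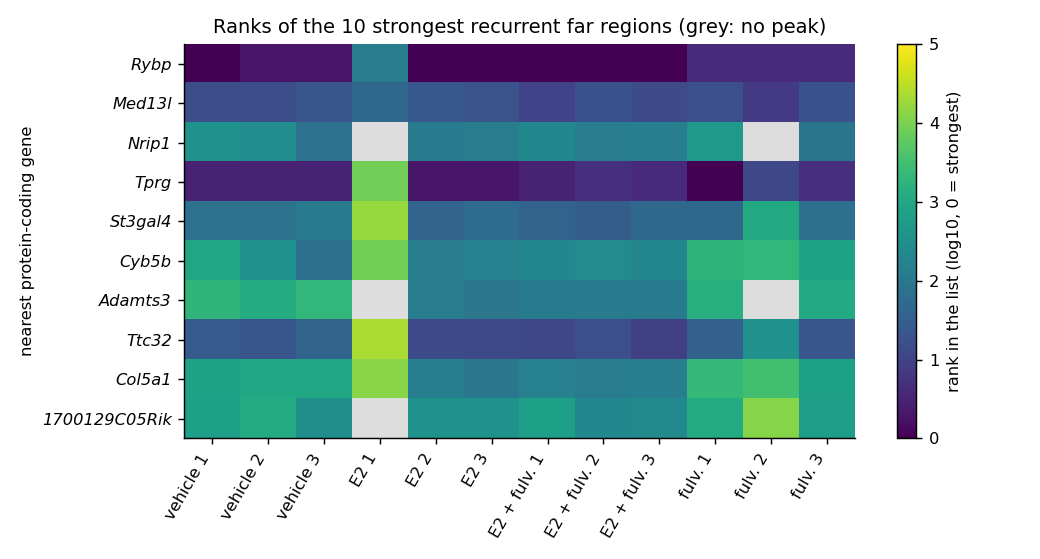
Rank within the list (colour, log10 scale, dark for strong) of the 10 strongest recurrent far regions (y axis, by nearest protein-coding gene) in each of the 12 libraries (x axis), with grey where a library had no peak. The Rybp, Med13l and Tprg regions rank between 1 and 23 in each library but E2 replicate 1, which ranks them 126, 49 and 8410.

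The next question was whether E2 changed the order of recurrent far regions within a list. For this, chosen after seeing the data, a region was called ordered by E2 when it ranked higher in each of the 5 libraries given E2 than in each of the 5 not given it, with E2 replicate 1 and fulvestrant replicate 2 left out and a missing peak ranked last. Recurrence was counted over libraries that include these, so a region could enter with peaks mostly in libraries given E2. The regions set beside them, all recurrent regions, passed the same filter. Both points apply to the comparisons of single treatments below as well. The rule held for 157 of 1459 recurrent far regions (10.8%), beside 5.25% of all recurrent regions. The opposite order held for 1 recurrent far region, beside 1.19% of all. With E2 replicate 1 and fulvestrant replicate 2 included, 4 recurrent far regions (0.274%) and 0.147% of all recurrent regions met the rule. Of the 157 regions, 35 held an ERE (22.3%) and 30 held AP-1 (19.1%), while 52 of the 1301 regions in neither order held an ERE (4.00%). The shares were alike over all 1540 recurrent regions ordered by E2, of which 24.1% held an ERE and 19.8% held AP-1. The 157 regions were also stronger, with a median mean rank percentile of 24.1 against 41.2 over all recurrent far regions. The part of strength in their ERE share was not tested.

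Among ordered regions, the lowest mean rank percentile over libraries with a peak belonged to one 133 kb from Adamts3, which encodes a procollagen N-proteinase, at chr5:90015790-90017923. E2 replicate 1 and fulvestrant replicate 2 had no peak there and so did not enter its mean. It ranked 1890, 1238 and 2056 with vehicle and 1378 and 1160 in fulvestrant replicates 1 and 3. With E2 it ranked 133 and 98 in replicates 2 and 3 and with E2 plus fulvestrant 119, 122 and 109. Fold enrichment was 4.51 to 6.13 in the 5 libraries not given E2 and 11.3 to 19.0 in the 5 given it. It held no ERE and 1 TGANTCA match, 22 bp from its best-ranked summit, shown in capitals in a window at chr5:90016722-90016776 as the sequence at an ordered region without an ERE.
Adamts3: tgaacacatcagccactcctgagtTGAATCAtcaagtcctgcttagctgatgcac

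Further ordered regions lay near a collagen and a receptor gene. The region 67.5 kb from Col5a1, the gene of a fibrillar collagen chain, at chr2:27817704-27819703, ranked 808, 954 and 961 with vehicle, 136 and 97 in E2 replicates 2 and 3, 149, 133 and 138 with E2 plus fulvestrant, and 2122 and 698 in fulvestrant replicates 1 and 3. E2 replicate 1 ranked it 13056 and fulvestrant replicate 2 ranked it 3084. The region 50.3 kb from Agtr2, an angiotensin II receptor gene on the X chromosome, at chrX:21433393-21434668, ranked 345, 1008, 502, 320 and 531 in the 5 libraries given E2 and 1010 to 4858 in the 5 not given it, with no peak in E2 replicate 1 or fulvestrant replicate 2. The closest pair of libraries from the opposite sides was thus 1008 and 1010, at the edge of the rule.

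The regions nearest to Ttc32, 78.9 kb away at chr12:9107568-9111300, Qk, an RNA-binding protein gene 318 kb away at chr17:10000623-10002197, and Gm12728, 148 kb away at chr4:105640545-105642421, were also ordered by E2. The Ttc32 region ranked 9 to 17 given E2 and 22 to 41 without, above the Adamts3 region in each of the 10 libraries, and its fold enrichment was 30.4 to 47.3 against 14.9 to 19.1. The Qk region ranked 80 to 186 against 299 to 1758. In E2 replicate 1 the Ttc32 region ranked 23685 and the Qk region had no peak.

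Single treatments were compared by the same rank order over recurrent far regions, with the same 2 libraries left out. E2 and fulvestrant thus entered with 2 libraries each, and vehicle and E2 plus fulvestrant with 3. An order over fewer libraries is easier to meet, so counts from comparisons of unlike size are not set against each other. Both E2 libraries ranked higher than all 3 vehicle libraries in 549 recurrent far regions (37.6%, beside 21.2% of all recurrent regions), and lower in 26 (1.78%, beside 8.51%). E2 plus fulvestrant ranked higher than vehicle in 322 (22.1%, beside 11.7%) and lower in 34 (2.33%, beside 6.89%). These 2 comparisons share the vehicle libraries. E2 ranked higher than E2 plus fulvestrant in 187 (12.8%, beside 13.2%) and lower in 104 (7.13%, beside 5.82%). Fulvestrant ranked higher than vehicle in 160 (10.97%, beside 11.7%) and lower in 108 (7.40%, beside 6.69%). Raw ranks depend on list length, and a missing peak was ranked last, so the E2 counts were repeated on other scales. By rank percentile, E2 was above vehicle in 853 (58.5%, beside 36.6%) and below in 2 (0.137%, beside 1.91%), and above E2 plus fulvestrant in 261 (17.9%, beside 21.4%) and below in 43 (2.95%, beside 2.47%). By fold enrichment, E2 was above vehicle in 1044 (71.6%, beside 57.3%) and below in 2 (0.137%, beside 0.324%), and above E2 plus fulvestrant in 433 (29.7%, beside 35%) and below in 26 (1.78%, beside 1.39%). With E2 replicate 1 and fulvestrant replicate 2 included, the E2 counts by rank were 29 above vehicle and 12 above E2 plus fulvestrant.

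Presence alone separated few far regions. Each set below needed a peak in at least 1 of the 10 libraries. That held for 7624 of the 22350 far regions and for 119035 of all 228284. The shares below are therefore lowered more for far regions than for all regions, and their order is not read. In 6 far regions every E2 library had a peak and every E2 plus fulvestrant library lacked one (0.0268% of far, beside 0.207% of all regions), 4 of them masked and 0 with an ERE. The reverse held for 19 (0.0850%, beside 0.0732%). All E2 and no vehicle library held 25 (0.112%, beside 0.344%), 8 of them masked and 0 with an ERE. All E2 plus fulvestrant and no vehicle library held 126 (0.564%, beside 0.569%), of which 14 had an ERE. With E2 replicates 2 and 3 alone, 254 far regions were in both and no E2 plus fulvestrant library (1.14%, beside 1.51% of all regions), 19 in the reverse (0.0850%, beside 0.0832%) and 664 in both and no vehicle library (2.97%, beside 3.25%), of which 40 held an ERE.

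The separating regions were mostly weaker than recurrent ones. The 6 in E2 and not in E2 plus fulvestrant had a median mean rank percentile of 69.1, the 19 in the reverse 61.3 and the 25 in E2 and not in vehicle 56.6, against 41.2 over recurrent far regions. The best 3 of them lay nearest to Ccdc59, at chr10:105732004-105733022, to Cd44, the hyaluronan receptor gene, at chr2:102809466-102810223, and to Arpp21, at chr9:112754179-112754764, and all 3 were repeat-masked. The Cd44 region also had a peak in vehicle replicate 3 and fulvestrant replicate 1. Fold enrichment of the Ccdc59 region was 6.64, 3.29 and 2.53 in the E2 replicates.

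The best of the 19 in the reverse lay nearest to Fat4, an atypical cadherin gene, at chr3:39504797-39505252, to Auh at chr13:52805517-52806344 and to Cd47 at chr16:50010528-50011113. Fold enrichment in the Fat4 region was 4.08, 3.72 and 5.66 with E2 plus fulvestrant. The best of the 25 in E2 and not in vehicle was a neighbouring region, 109 kb from Auh at chr13:52820215-52820979. It ranked 43455, 1429 and 9576 in the E2 replicates and 10728, 612 and 2869 with E2 plus fulvestrant. It had no peak in any vehicle or fulvestrant library. Next came regions nearest to 1700129C05Rik at chr14:58989673-58990685 and to Shox2, a homeobox gene, at chr3:66650037-66651693, both also with a peak in fulvestrant replicate 2.

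Some recurrent far regions lay close together. Chaining them with gaps of at most 50 kb and keeping chains of at least 5 gave 47 clusters with 321 regions (22.0% of recurrent far regions) in 3.54 Mb, 0.835% of far territory. A further 499 recurrent far regions had no neighbour within 50 kb. Of the 321, E2 replicates 2 and 3 had a peak in 314 and 321, the E2 plus fulvestrant replicates in 236, 293 and 310, the vehicle replicates in 280, 207 and 209 and fulvestrant replicates 1 and 3 in 248 and 255. E2 replicate 1 had a peak in 67 and fulvestrant replicate 2 in 134. Regions ordered by E2 made up 40 of the 321 (12.5%) and 117 of the 1138 outside clusters (10.3%).

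The largest cluster, with 17 regions over 186 kb at chr6:51031442-51217101, lay between Npvf and Nfe2l3. The vehicle replicates had a peak in 17, 12 and 13 of the 17, the E2 replicates in 7, 16 and 17, the E2 plus fulvestrant replicates in 12, 13 and 17 and the fulvestrant replicates in 11, 12 and 13. Treatments overlapped, 0 regions held an ERE, 4 held AP-1 and 2 were ordered by E2. The second, with 14 regions at chr13:104496706-104628169 between Adamts6, a secreted metalloproteinase gene, and Cwc27, had a peak in 11 to 14 of its regions in 11 libraries and in 10 in E2 replicate 1. It had 0 regions with an ERE and 0 ordered by E2.

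The other 3 of the 5 largest lay at chr7:72401127-72544274 between Mctp2 and Rgma, with 13 regions, at chr17:14531279-14641376 between the matricellular protein genes Smoc2 and Thbs2, with 13, and at chr10:37687588-37862848 between Marcks and Rfpl4b, with 12. In the Marcks cluster E2 replicate 1 had a peak in 0 and fulvestrant replicate 2 in 2 of 12 regions, against 8 to 12 in the other libraries. A smaller cluster was singled out after its values were seen. It held 9 regions in 56.4 kb at chr2:27763264-27819703, between Rxra, the retinoid X receptor gene, and Col5a1, and 5 of the 9 were ordered by E2, including the Col5a1 region above.

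**Figure D5:**
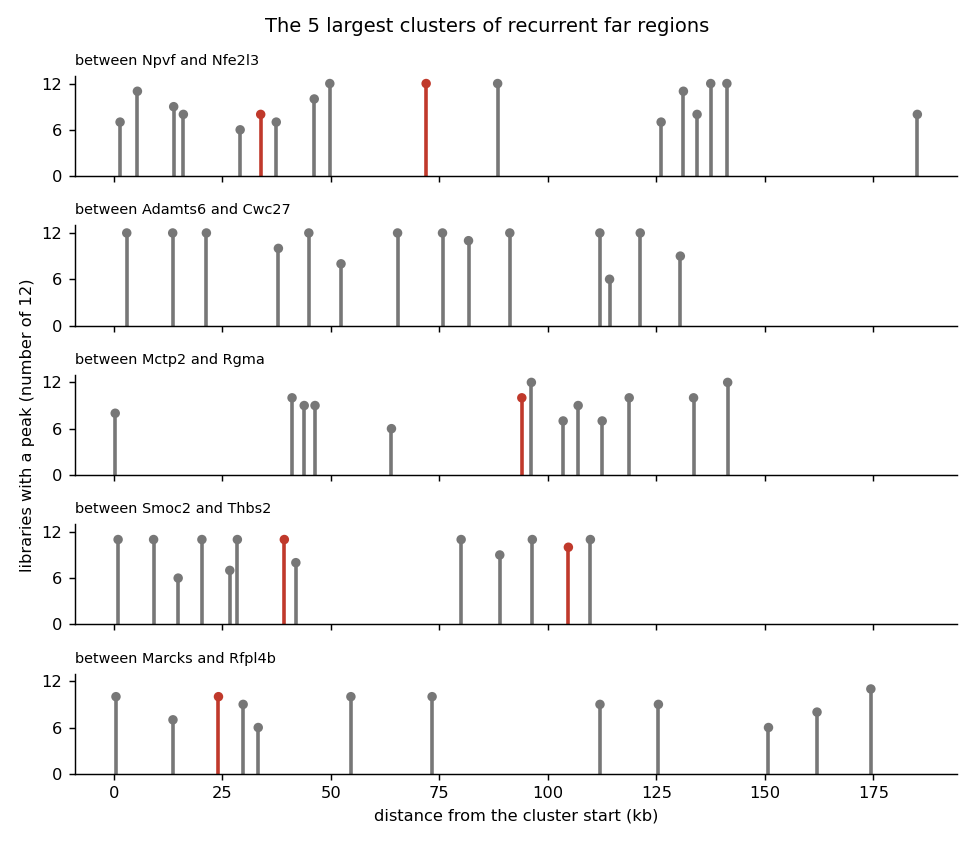
Recurrent far regions in the 5 largest clusters, placed by distance from the cluster start (x axis, kb) and by number of libraries with a peak (y axis, of 12), red where the region was ordered by E2. The clusters hold 17, 14, 13, 13 and 12 regions, and 0 to 2 regions of each are red.

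Long gene deserts held fewer recurrent far regions than far territory as a whole. Of 130 gaps of at least 500 kb between annotated gene bodies, 84.9 Mb in all, 31 held at least 1 recurrent far region and 99 held none. The 112 recurrent far regions in deserts made 1.32 per Mb of desert, whose length here includes any ends within 50 kb of a TSS, against 3.44 per Mb of far territory. Far peaks of single libraries in deserts were 5.87% to 8.27% of far peaks in the 10 libraries, 12.4% in fulvestrant replicate 2 and 15.9% in E2 replicate 1, where 2169 far peaks lay there.

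Deserts are named here by the nearest protein-coding gene on each side, which need not border the gap. Fat4 lay 815 kb, Sel1l 2211 kb and Epha7 2413 kb beyond the gaps named after them. Of the 112 recurrent regions in deserts, 71 lay in 8 deserts, with a ninth, between Megf9 and Gm11232, tied at 5 with the last 2 of them. The fullest, 18 regions at chr3:39827412-40504866, lay between Fat4 and Intu, a planar polarity effector gene. It had 33, 15 and 19 far peaks in the vehicle replicates, 18, 34 and 44 in the E2 replicates, 19, 30 and 37 with E2 plus fulvestrant and 25, 7 and 25 with fulvestrant alone, with the treatments overlapping. The desert between Pard3 and Nrp1, the gene of a semaphorin and VEGF co-receptor, at chr8:127612287-128278147, held 12, of which 3 were ordered by E2. A desert on chromosome 18 between Gata6 and Rbbp8 held 11.

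The remaining 5 of the 8 lay between Mterf1b and the Wnt receptor gene Fzd1 at chr5:4197652-4753838 with 7, between Sel1l and Flrt2 at chr12:94059702-94757574 with 7, and between Epha7 and the kinase gene Map3k7 at chr4:31380947-31964096 with 6. That between the ligand gene Bmp2 and Hao1 at chr2:133584422-134497360 and that between Igfbp3 and Tns3 at chr11:7290375-7886443 held 5 each. Of the 7 in the Sel1l to Flrt2 desert, 2 held an ERE and 2 were ordered by E2. Its far peaks numbered 4 to 8 in the 6 libraries not given E2 and 10 to 18 in the 6 given E2, a pattern picked out after its values were seen and given with no test.

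Finally, recurrent far regions were assigned to the protein-coding gene with the nearest TSS. Of 42 mesenchymal developmental regulators, 18 (42.9%) had at least 1, against 639 of 21911 protein-coding genes (2.92%). A gene can have one only if its TSS is the nearest protein-coding one to intergenic sequence over 50 kb from any TSS. How many genes of the list meet this was not counted. Sox9, a transcription factor of cartilage and other mesenchyme, had the most, 11. The vehicle replicates had a peak in 10, 6 and 7 of them, the E2 replicates in 4, 11 and 10, the E2 plus fulvestrant replicates in 8, 10 and 9 and the fulvestrant replicates in 9, 3 and 7. Of the 11, 1 was ordered by E2 and 0 held an ERE.

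Runx1, another lineage transcription factor gene, had 8 and the TALE homeobox gene Meis2 had 6. Meis1 and Tcf21, a transcription factor gene of fibroblast lineages, had 3 each. Of the 8 Runx1 regions, 2 had a peak in E2 replicate 1, 8 in E2 replicates 2 and 3 and in E2 plus fulvestrant replicate 2, 7 in E2 plus fulvestrant replicate 3 and 4 in E2 plus fulvestrant replicate 1, against 4, 5 and 5 in the vehicle replicates and 5, 2 and 2 in the fulvestrant replicates.

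Of 11 genes that the study discusses in connection with E2, a list chosen on samples of the same study, 4 had at least 1 (36.4%). Tgfb2, a ligand of the TGF-β family, and Adamts6 had 6 each, and the matricellular gene Ccn3 had 3. Of the 6 Tgfb2 regions, 3 were ordered by E2 and 1 held an ERE, while 0 of the 6 Adamts6 regions were ordered by E2 and 5 or 6 of them had a peak in each library other than E2 replicate 1, which had 4. Over all genes the most regions were nearest to Marcks with 22, Intu with 18, Gm12728 with 17, Bmper, a BMP modulator gene, with 15, and Nfe2l3 with 15.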

How the data were processed

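ESR1 ChIP-Seq (antibody Millipore Sigma 06-935) gave 12 peak lists, 3 per treatment. An input sample was not analysed here. The submitters' processing notes name Trimmomatic 0.39, Picard 2.21.4, Bowtie2 and MACS2. The authors called peaks per library, and the deposited lists give each peak's fold enrichment, a ratio over background, with −log10 p and −log10 q. The study's methods include a step that drops peaks in blacklisted regions, and whether the deposited lists precede or follow it is not given in the sources used here. The smallest −log10 p per list was 2.00 to 2.04, so weak peaks are included. The deposited score column was not used.

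Summits were placed against GENCODE vM21 basic genes, and windows of 100 bp on each side were read from soft-masked GRCm38.p6. Depth was taken as the lowest background level in a list, recovered from fold enrichment and −log10 p, over the width of its narrowest peak. Peaks were merged by 1 bp overlap. Libraries were compared by exact permutation tests with Benjamini-Hochberg adjustment over 12 tests (Python 3.11.15, NumPy 2.4.6, pandas 2.3.3, SciPy 1.17.1, Matplotlib 3.10.9), tested on simulated data. The study's read-count model with batch adjustment cannot be run on peak lists, and the labels give no batch. Named regions were the 10 strongest recurrent, the 6 strongest with an ERE, the best 3 of each separating set, the 8 fullest deserts and the 5 largest clusters, with list genes by count. The 6 best-ranked regions ordered by E2 were added after their values were seen. An item counted in the gene lists is not reported here by name. The members and lists were chosen with earlier results of these data known.

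Replicate numbers were checked for pairing over 413 regions in all 10 libraries. Deviations of same-numbered libraries correlated between −0.0809 and 0.233, with a mean of 0.0512 and 3 of 12 pairs above 0.1. Different-numbered libraries had a mean of −0.0248 and 2 of 25 pairs above 0.1. E2 and fulvestrant had 2 libraries each here, whose deviations mirrored each other, so the check could not settle pairing. The numbers were not treated as pairs.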

Additional observations from a re-analysis of the deposited data

Results flagged for a closer look

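In groups of 6 libraries, by whether E2 was given, 2 libraries stood far from the nearest other library by Dixon's ratio of gap to range, which chance exceeds in about 1 in 20 groups. Of 10 groups examined, 7 held such a library. E2 replicate 1 stood apart with 13635 far peaks, with a far share of 13.04% of its list, with 90.1% of its far peaks repeat-masked and with an ERE at 0.873% of far summits. Fulvestrant replicate 2 stood apart with 4804 far peaks, with 72.6% repeat-masked and with an ERE at 0.666%. Both libraries had lower depth than the other 10 (39.1% and 75.8%). The part of depth in these values was not tested.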

How the results depend on the processing

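Of 355 alternatives over 24 results, 288 chosen at the start and 67 after seeing the data, 264 gave the same direction and side of the threshold or a count within 1.5 times. The causes of the other shifts were not tested, except where an alternative leaves fewer peaks or asks for fewer libraries.

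Above a −log10 q of 10, the ERE difference by E2 was −7.32 points and the rank difference from near peaks −0.272. The Jaccard difference was then 0.0774 (one-sided exact permutation p = 0.0181). At that limit 2 far regions were in E2 and not E2 plus fulvestrant, 3 were in the reverse, and 160 were recurrent, in 3 clusters. A q of at most 0.05 left 11 in E2 plus fulvestrant and not E2. With the 30000 strongest peaks of each list, the fulvestrant to vehicle ratio was 0.953, the rank difference −0.0794, and the counts were 2 in E2 and not E2 plus fulvestrant, 8 in E2 and not vehicle, 887 recurrent and 15 clusters. With masked peaks removed, the fulvestrant to vehicle ratio was 0.939, and 0 and 9 regions were in E2 and not in E2 plus fulvestrant or vehicle. The far share of E2 minus E2 plus fulvestrant was then −0.338 points, or 0.555 points without E2 replicate 1. With a limit of 100 kb, the ERE excess over near peaks was −0.0617 points and the counts were 2 in E2 and not E2 plus fulvestrant, 8 in the reverse, 6 in E2 and not vehicle, 466 recurrent and 14 clusters. Merging summit windows gave 46 regions in E2 plus fulvestrant and not E2 and 13 in E2 and not vehicle. An ERE without mismatch gave a difference by E2 of −0.0272 points. Recurrence in at least 4 libraries gave 2230 regions and 92 clusters, and in at least 8 gave 927 and 18.

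Without E2 replicate 1 and fulvestrant replicate 2 together, the masked share of E2 minus E2 plus fulvestrant was −0.681 points, the masked share of far minus near −2.24 points, the ERE difference by E2 1.05 points, and 260 and 668 regions were in E2 and not in E2 plus fulvestrant or vehicle.

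Rank order was also recomputed. By rank percentile, 0 regions were lower with E2 in each library, 853 were higher and 2 lower in E2 than vehicle, and 43 higher in E2 plus fulvestrant than E2. By fold enrichment, 240 were higher and 0 lower with E2 in each library, 1044 higher and 2 lower in E2 than vehicle, 433 higher in E2 than E2 plus fulvestrant and 26 the reverse. With those 2 libraries included, the counts were 4 higher and 0 lower with E2, 29 higher in E2 than vehicle and 12 higher in E2 than E2 plus fulvestrant.

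Leaving out each replicate in turn, far peak ratios ranged from 1.34 to 3.12 for E2 to E2 plus fulvestrant, 1.93 to 4.48 for E2 to vehicle, 1.22 to 1.64 for E2 plus fulvestrant to vehicle and 1.05 to 1.77 for fulvestrant to vehicle. Far share differences ranged from 0.522 to 4.13 points for E2 minus E2 plus fulvestrant and 1.16 to 4.77 for E2 minus vehicle. The masked difference ranged from −0.681 (without E2 replicate 1) to 41.3 points, the ERE difference by E2 from 0.514 to 1.45 points (past the threshold without E2 replicate 1), masked far minus near from −1.10 (without fulvestrant replicate 2) to 1.46, ERE far minus near from 0.372 to 0.479, the rank difference from 0.271 to 1.04 and the Jaccard difference from −0.00370 (without E2 plus fulvestrant replicate 2) to 0.0340. Counts ranged from 11 to 255 (without E2 replicate 1) in E2 and not E2 plus fulvestrant, 19 to 87 (without E2 plus fulvestrant replicate 1) in the reverse, 26 to 664 (without E2 replicate 1) in E2 and not vehicle, 1169 to 1434 recurrent and 31 (without E2 replicate 2) to 44 clusters. Regions ordered by E2 ranged from 164 to 276 (without E2 plus fulvestrant replicate 1) and in the reverse from 1 to 6. Rank order gave 641 to 788 for E2 above vehicle, 56 to 72 for the reverse, 356 to 586 (without E2 plus fulvestrant replicate 1) for E2 plus fulvestrant above vehicle, 240 to 424 (without E2 replicate 3) for E2 above E2 plus fulvestrant and 147 to 301 (without E2 plus fulvestrant replicate 1) for the reverse.

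With a replicate block, permuting only within or flipping by replicate number, the ERE excess of far over near summits was 0.417 points with an exact permutation p of 0.25, the smallest that 8 arrangements allow, and no other call changed. Whether the replicate numbers pair the libraries could not be settled. Whether lower depth (39.1% for E2 replicate 1, 75.8% for fulvestrant replicate 2) hid weak peaks was not tested. These 2 lists held the most peaks, 104571 and 80754.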
